A study of Mus musculus with 2 samples.

Results

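The genes described here encode the T cell receptor complex and the proteins that relay or restrain its signal next to the membrane. There were 36 of them, of 23462 genes named on the array, and they were listed by gene symbol from their known roles. Their probes were found by matching the transcript accession of each probe to the RefSeq mouse gene table. By their known roles 23 genes were taken as activating and 13 as restraining, although several proteins, such as CD6 and THEMIS, are known to act either way. The antigen-binding chains of the receptor have no signalling part of their own and depend on the CD3 and ζ chains, whose cytoplasmic tails are phosphorylated by the kinase LCK. The kinase ZAP70 then docks on these tails and phosphorylates the adaptor LAT, which gathers phospholipase Cγ1 and its partners. The phospholipase makes diacylglycerol, and from there the signal reaches Ras through RASGRP1 and nuclear factor κB (NF-κB) through protein kinase Cθ, BCL10 and MALT1. In CD8 T cells this relay starts killing and cytokine release, and phosphatases, ubiquitin ligases and diacylglycerol kinases hold it back.

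The study measured RNA of mouse CD8 T cells on 2 arrays, 1 for a culture given 1 µM prednisolone, a synthetic glucocorticoid, and 1 for a culture given vehicle. All cells began as naive, CD44-low and CD62L-high CD8 T cells of C57BL/6 spleens and were activated for 2 days by immobilized antibodies to TCR-β (3 µg/ml) and CD28 (1 µg/ml) with 10 ng/ml interleukin-2. Prednisolone is described for those 2 days, and the following 3 days on a new plate are described with interleukin-2 alone, so the culture described ran to day 5. The labels do not say when RNA was taken, or whether cells of several animals were pooled. With 1 array per condition there was no replicate, no test between the conditions could be made, and the spread between cultures is unknown.

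On both arrays 53.5% of the 59305 non-control spots were well above background and none was saturated. Levels below are log2 of the processed signal relative to the array's 75th percentile, which was 386.9 intensity units for prednisolone and 400.4 for vehicle. Such a level can be set between the 2 arrays for 1 gene, but not between genes, since probes differ in brightness. A difference is prednisolone minus vehicle on the log2 scale, and its ± is the scanner software's own error. This error lay between 0.12 and 0.21 for the 35 members with a value and leaves out any spread between cultures. For 281 probes printed 10 times each the difference varied between copies with a median SD of 0.028. Over 8 probes for spike-in control RNA the difference averaged −0.24 and ranged from −0.33 to −0.099. Scaling on their mean instead adds 0.24 to every difference. That scaling turned the sign of 5 members, Cd8a, Cd8b1, Zap70, Csk and Ptpn6, and a statement below that a value lay within its error holds for the scaling on the 75th percentile. In RNA from a whole culture, fewer cells of a type and less RNA per cell cannot be told apart.

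All 36 members had a probe, 58 probes in all, and 35 members were well above background on both arrays. No spot of a member was itself flagged as an outlier. An outlier flag lay on the local background of 7 spots on the prednisolone array and of 1 of these on the vehicle array, in Cd3e, Cd3g, Cd247, Cd8b1, Malt1, Cblb and Ptpn22. Those spots were kept. Cd3g, Cd8b1 and Ptpn22 rest on such a spot alone.

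With prednisolone, most members had a lower signal than with vehicle, by less than 2-fold. Of 35 members with a value 26 lay below 0, where 49.8% of all 12901 measured genes did, and after spike-in scaling 14 of 23 activating and 7 of 12 restraining members did, where 31.2% of all genes did. The median of the members was −0.42, against 0.0032 for all measured genes. Rasgrp1 was the only member at least 2-fold lower, where 6.73% of all measured genes were, and none was at least 2-fold higher, where 5.84% were. After spike-in scaling no member was 2-fold apart, where 9.72% of all measured genes were at least 2-fold higher and 4.12% lower. The share of higher genes among all those 2-fold apart was then 70.3%, against 46.5% as reported. More than 0.5 lower were 15 members, where 18.2% of all genes were, and more than 0.5 higher were 2, where 17.5% were. Beyond 2 software errors 20 members were lower and 2 higher, where 23.5% and 23.4% of all genes were. The members are mostly bright, with 27 of 35 among the 3225 brightest measured genes, and over those 3225 the median was 0.054 and 12.1% were more than 0.5 lower.

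**Figure D1:**
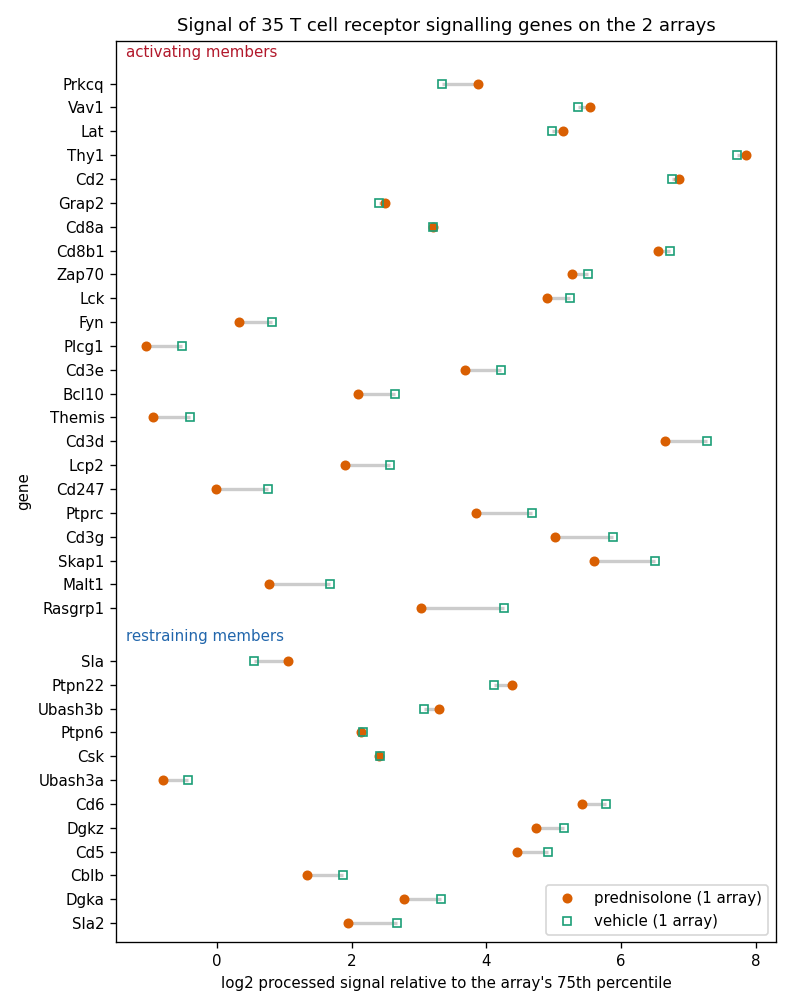
Level of each of 35 members on the prednisolone array (filled circles) and the vehicle array (open squares), as log2 processed signal relative to the array's 75th percentile (horizontal axis, 1 row per gene, 1 array per condition). In 26 of the 35 rows the prednisolone point lies left of the vehicle point, and the longest gap is that of Rasgrp1, at 3.03 and 4.26.

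The 4 chains that carry the signal of the receptor were all lower with prednisolone. Cd3d, the gene of CD3δ, was at 6.66 with prednisolone and 7.27 with vehicle, a difference of −0.61 ± 0.14, and its 2 probes gave −0.65 and −0.58. Cd3g, the gene of CD3γ, was at 5.02 with prednisolone and 5.89 with vehicle, a difference of −0.87 ± 0.20 from 1 probe. Cd3e, the gene of CD3ε, was at 3.69 with prednisolone and 4.22 with vehicle, a difference of −0.53 ± 0.14. The CD3 genes were thus 1.45-fold to 1.82-fold lower, and all 5 of their probes lay below 0, after spike-in scaling as well. Cd247, the gene of the ζ chain, was at −0.0084 with prednisolone and 0.75 with vehicle, a difference of −0.76 ± 0.15. Its 3 probes disagreed in size, at −0.47, −0.40 and −1.42. The probe at −1.42 had only 16.0 intensity units with prednisolone and 44.1 with vehicle, near the lowest signals called well above background (11.7 and 12.8), and the brightest probe alone gave −0.40.

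Cd3g and Cd3d are neighbours that are read outward from start sites 1355 bases apart, with Cd3e a further 27825 bases along. Since these 3 genes lay lower together, their promoter windows, from 250 bases before to 50 bases after the start site, are shown from RefSeq (GRCm38.p6), 5′ to 3′ on the strand of the gene. Cd3g lies at chr9:44980382-44980681 on the minus strand, Cd3d at chr9:44981536-44981835 on the plus strand and Cd3e at chr9:45009562-45009861 on the minus strand. Capitals mark matches to AGGAAG, the core bound by ETS factors, or to GGGCGG, the GC box, on either strand.
Cd3g: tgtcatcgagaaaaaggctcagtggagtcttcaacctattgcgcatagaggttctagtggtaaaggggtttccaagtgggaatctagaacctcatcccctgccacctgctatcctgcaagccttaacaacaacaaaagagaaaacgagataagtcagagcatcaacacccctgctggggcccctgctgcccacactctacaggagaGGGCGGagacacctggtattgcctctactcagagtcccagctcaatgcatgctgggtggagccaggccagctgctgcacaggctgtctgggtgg
Cd3d: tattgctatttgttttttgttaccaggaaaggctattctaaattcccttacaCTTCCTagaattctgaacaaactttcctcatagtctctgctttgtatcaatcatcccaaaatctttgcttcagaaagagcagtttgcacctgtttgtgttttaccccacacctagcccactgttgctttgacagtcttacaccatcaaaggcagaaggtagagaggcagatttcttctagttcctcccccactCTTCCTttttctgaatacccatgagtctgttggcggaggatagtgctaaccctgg
Cd3e: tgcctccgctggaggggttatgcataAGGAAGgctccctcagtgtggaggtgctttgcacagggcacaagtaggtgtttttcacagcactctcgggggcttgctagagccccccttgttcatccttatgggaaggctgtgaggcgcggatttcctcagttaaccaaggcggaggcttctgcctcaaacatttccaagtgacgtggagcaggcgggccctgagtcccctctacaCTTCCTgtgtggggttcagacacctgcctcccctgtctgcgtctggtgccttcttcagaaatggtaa
The Cd3d window holds 2 ETS cores, starting 198 and 5 bases before the start site, and the Cd3e window also holds 2, starting 224 and 17 bases before it. The Cd3g window holds a GC box 44 bases before its start site and no AGGAAG. None of these windows holds TGTTCT, which is 1 arm of the palindrome bound by the glucocorticoid receptor, or TATAAA, the TATA box, on either strand.

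The coreceptor genes stayed within their error of 0. Cd8a, the gene of CD8α, was at 3.21 with prednisolone and 3.21 with vehicle, with its 2 probes at −0.072 and 0.053, and differed by −0.0092 ± 0.14, which was 0.23 after spike-in scaling. Cd8b1, the gene of CD8β, was at 6.55 with prednisolone and 6.73 with vehicle, a difference of −0.17 ± 0.20, which was 0.064 after spike-in scaling. CD8 binds class I molecules and brings LCK to the receptor, and its 2 genes were not separated between the arrays beyond the error of the measurement.

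Among other surface receptors, the adhesion receptor gene Cd2 was at 6.85 with prednisolone and 6.76 with vehicle, a difference of 0.097 ± 0.20. Thy1, a glycolipid-anchored T cell antigen, was at 7.85 with prednisolone and 7.72 with vehicle, a difference of 0.13 ± 0.20. Both lay within the error. Ptprc encodes CD45, the phosphatase that keeps LCK ready by removing its inhibitory phosphate, and was at 3.84 with prednisolone and 4.68 with vehicle. That is a difference of −0.84 ± 0.14, or 1.79-fold lower, and its 2 probes gave −0.93 and −0.75.

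The kinases did not lie together. Lck was at 4.91 with prednisolone and 5.25 with vehicle, a difference of −0.34 ± 0.14, and its 2 probes were close, at −0.34 and −0.33. Fyn, the gene of the second Src-family kinase of T cells, differed by −0.48 ± 0.20. Zap70 was at 5.27 with prednisolone and 5.50 with vehicle, a difference of −0.23 ± 0.14, which was 0.0095 after spike-in scaling. Prkcq, which encodes protein kinase Cθ, went the other way and had the highest difference of all members. It was at 3.88 with prednisolone and 3.35 with vehicle, a difference of 0.53 ± 0.20, or 1.44-fold higher, and under the other ways of processing it ranged from 0.46 to 0.77.

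Of the 5 adaptor genes 3 were lower and 2 within their error. Skap1, whose product links the receptor to integrin activation, was at 5.60 with prednisolone and 6.51 with vehicle, a difference of −0.90 ± 0.20, or 1.87-fold lower. Lcp2, the gene of the scaffold that joins LAT to VAV1 and the phospholipase, differed by −0.67 ± 0.14, with its 2 probes at −0.69 and −0.65. Themis, known from thymic selection, differed by −0.55 ± 0.15, with all 3 probes between −0.66 and −0.47. The adaptor Lat itself was at 5.14 with prednisolone and 4.98 with vehicle, a difference of 0.16 ± 0.20. Grap2, which encodes the bridge between LAT and the Lcp2 product, differed by 0.076 ± 0.14, and its 2 probes went opposite ways, at −0.23 and 0.38. The platform gene Lat was thus within its error, while Lcp2 was 1.59-fold lower.

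**Figure D2:**
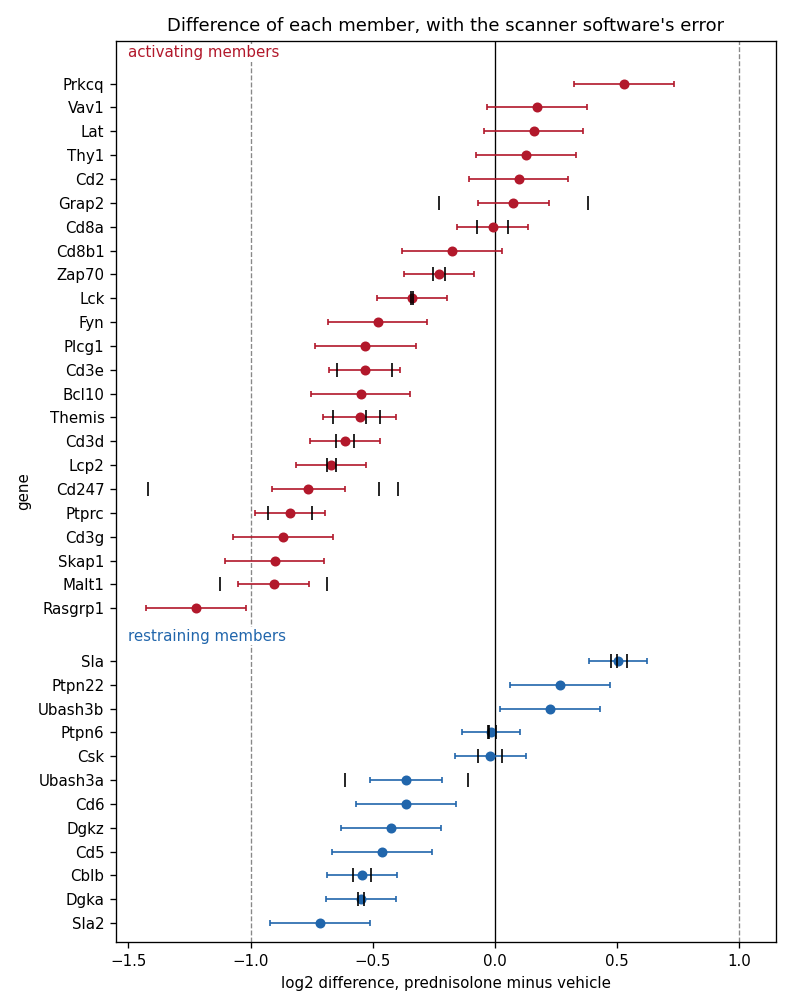
Log2 difference, prednisolone minus vehicle, of each member (horizontal axis, 1 row per gene), for activating members in red and restraining members in blue. Bars are the scanner software's error, black ticks the probes of genes with several, and dashed lines mark 2-fold. Rasgrp1 at −1.22 lies beyond the dashed line, Prkcq at 0.53 and Sla at 0.50 are the highest, and the probes of Cd247 and Grap2 spread the most.

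The enzymes below LAT ranged from the lowest member to values within the error. Rasgrp1, which encodes the diacylglycerol-bound exchange factor that loads Ras, was at 3.03 with prednisolone and 4.26 with vehicle. This is a difference of −1.22 ± 0.20 from 1 probe without a flag (3170 against 7664 intensity units), or 2.34-fold lower, and 4.22% of all measured genes lay lower still. Under the 9 other ways of processing it ranged from −1.28 to −0.99, and the value under spike-in scaling, −0.99, is just short of 2-fold. The next lowest members were Malt1 and Skap1, both short of 2-fold. Plcg1, the gene of phospholipase Cγ1, differed by −0.53 ± 0.21. Vav1, which encodes an exchange factor that links the receptor to the actin cytoskeleton, was at 5.53 with prednisolone and 5.36 with vehicle, a difference of 0.17 ± 0.20.

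The promoter windows of Rasgrp1 and Prkcq, the lowest and the highest activating member, are shown for comparison, also from RefSeq (GRCm38.p6), with the same motifs in capitals. Rasgrp1 lies at chr2:117342828-117343127 on the minus strand and Prkcq at chr2:11172132-11172431 on the plus strand.
Rasgrp1: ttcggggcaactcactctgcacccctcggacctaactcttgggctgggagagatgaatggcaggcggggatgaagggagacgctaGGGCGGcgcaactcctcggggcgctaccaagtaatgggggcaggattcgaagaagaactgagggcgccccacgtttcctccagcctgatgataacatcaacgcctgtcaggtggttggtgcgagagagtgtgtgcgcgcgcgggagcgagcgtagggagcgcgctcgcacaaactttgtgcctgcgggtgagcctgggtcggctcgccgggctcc
Prkcq: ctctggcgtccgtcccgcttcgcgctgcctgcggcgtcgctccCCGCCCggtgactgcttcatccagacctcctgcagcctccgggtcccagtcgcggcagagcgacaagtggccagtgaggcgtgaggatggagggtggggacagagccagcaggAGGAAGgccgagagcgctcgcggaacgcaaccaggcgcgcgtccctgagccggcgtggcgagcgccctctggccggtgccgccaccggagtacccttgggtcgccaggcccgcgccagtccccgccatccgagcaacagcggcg
The Rasgrp1 window holds a GC box starting 165 bases before the start site. The Prkcq window holds a GC box starting 207 bases before it and an ETS core starting 94 bases before it. Neither holds TGTTCT or TATAAA. RefSeq promoter windows were at hand for 28 of the 36 members, 40 windows in all. AGGAAG was in 65.0% of these windows and in 35.4% of all 32851 windows. TGTTCT was in 27.5%, against 19.0% of all windows, and the members that held it were Cd8a, Cd247, Dgka, Lcp2, Ptpn6, Ptpn22, Ptprc, Themis and Ubash3b. The whole palindrome, AGAACA and TGTTCT with 3 bases between them, was in 0 of 40 windows of members and in 3 of all windows. GGGCGG was in 42.5%, against 35.7%, and TATAAA in 7.5%, against 13.6%. Some members have several windows, which can overlap.

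In the branch to NF-κB both members were lower. Malt1 encodes the paracaspase that acts with BCL10 and was at 0.77 with prednisolone and 1.68 with vehicle, a difference of −0.91 ± 0.14. Its 2 probes gave −1.12 and −0.69, the second on a spot with a background flag, and without that spot Malt1 was 2-fold lower or more, at −1.12. Bcl10, the gene of its adaptor, was at 2.09 with prednisolone and 2.64 with vehicle, a difference of −0.55 ± 0.20. With Prkcq higher upstream of them, the members of this branch did not share a direction.

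The restraining members were also lower for the most part, by smaller amounts. Of 13 members 12 had a value, with a median of −0.36 and a range from −0.72 to 0.50, and 9 lay below 0 (7 after spike-in scaling). None was 2-fold apart. Cd5 and Cd6, surface receptors that dampen the signal of the receptor, differed by −0.46 ± 0.20 and −0.36 ± 0.20. Both diacylglycerol kinase genes, whose products remove the messenger that activates RASGRP1, were lower. Dgka was at 2.78 with prednisolone and 3.33 with vehicle, a difference of −0.55 ± 0.14 with its 2 probes at −0.56 and −0.54, and Dgkz differed by −0.42 ± 0.20. Cblb, the gene of a ubiquitin ligase that sets the need for costimulation, was at 1.33 with prednisolone and 1.88 with vehicle, a difference of −0.54 ± 0.14.

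The related adaptors Sla and Sla2, which target the receptor complex for degradation, lay at opposite ends of the restraining genes. Sla was at 1.05 with prednisolone and 0.55 with vehicle, a difference of 0.50 ± 0.12, and its 3 probes gave 0.47, 0.50 and 0.54. Sla2 was at 1.95 with prednisolone and 2.67 with vehicle, a difference of −0.72 ± 0.20 from 1 probe. Sla was thus 1.42-fold higher and Sla2 1.64-fold lower.

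The phosphatase genes lay nearer to 0, except for Ubash3a by the mean of its 2 probes. Ptpn6 encodes SHP-1, which removes phosphate from LCK and ZAP70, and was at 2.15 with prednisolone and 2.16 with vehicle, with its 3 probes between −0.029 and 0.0065. Ptpn22, whose product acts on the active site of LCK, was at 4.38 with prednisolone and 4.11 with vehicle, a difference of 0.27 ± 0.20 from 1 flagged spot. Ubash3b differed by 0.23 ± 0.20 and its relative Ubash3a by −0.36 ± 0.15. The dimmer Ubash3a probe gave −0.61, from 78.6 intensity units with prednisolone and 125 with vehicle. The brighter one, with 630 and 704 units, gave −0.11 ± 0.20, within its error. Csk encodes the kinase that places the inhibitory phosphate on LCK, and was at 2.40 with prednisolone and 2.42 with vehicle. The signs of Csk and Ptpn6 turned under spike-in scaling, to 0.22 each. Pag1, the gene of the membrane anchor of CSK, was dim, with 1 of 2 probes well above background with prednisolone and none with vehicle. That probe was at −4.59 with prednisolone, against a lowest level of −4.97 called well above background with vehicle, a bound of 1.30-fold higher. The bound lay within the software error of the probe's difference, 0.57, so no direction is given for Pag1.

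Set apart by role, the 23 activating members had a median of −0.53, with 17 below 0 (14 after spike-in scaling), and the 12 restraining members with a value had −0.36. The medians were 0.17 apart. Of the 9 other ways of processing, 3 add a constant to every gene and cannot alter this gap, and under the other 6 it was between 0.089 and 0.24. The ranges overlapped, from −1.22 to 0.53 for activating members and from −0.72 to 0.50 for restraining members. More than 0.5 lower were 12 of 23 activating and 3 of 12 restraining members, where 18.2% of all measured genes were. At that cutoff the restraining count is near that of all genes, but at other cutoffs it is not, and the roles lay closer. Beyond 2 software errors 14 of 23 activating and 6 of 12 restraining members were lower, and 1 of each role was higher. Of all measured genes 23.5% were lower and 23.4% higher by as much. The 6 restraining members include Ubash3a, whose brighter probe alone, at −0.11, lay within its error. Below 0 lay 17 of 23 activating and 9 of 12 restraining members, where 49.8% of all measured genes did. With 1 array per condition the difference between the roles was not tested.

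**Figure D3:**
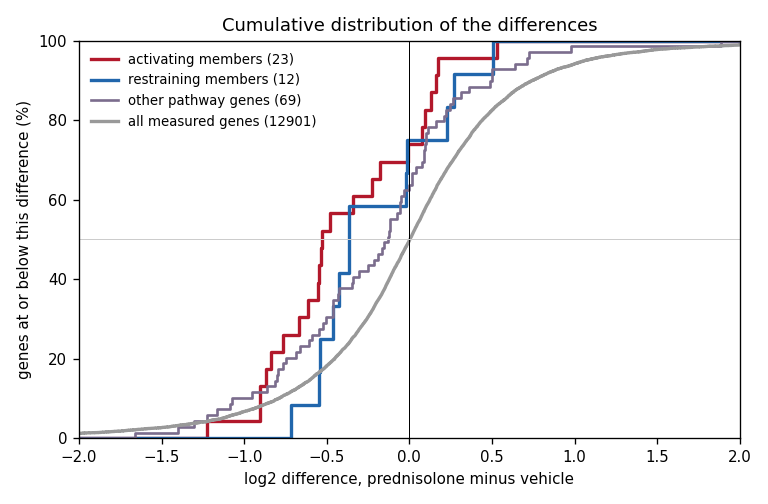
Share of genes (vertical axis, %) at or below each log2 difference, prednisolone minus vehicle (horizontal axis, values beyond 2 not shown), for 23 activating members, 12 restraining members, 69 other genes of the pathway and all 12901 measured genes. At the 50% line the curves cross −0.53, −0.36, −0.13 and 0.0032 in that order.

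The pathway beyond the members was represented by 71 further genes listed by their role, 69 of which had a value. Their median was −0.13, which was 0.11 after spike-in scaling. Below 0 lay 44 of 69, where 49.8% of all measured genes did, and after spike-in scaling 30 of 69, where 31.2% did. At least 2-fold lower were 7 of 69, where 6.73% of all measured genes were, and 1 was at least 2-fold higher, where 5.84% were. After spike-in scaling 3 were at least 2-fold lower, where 4.12% of all measured genes were, and 2 were higher, where 9.72% were. Of the 7 lower genes 6 were among the 17 measured kinases and adaptors beside LAT, whose median was −0.42. Txk, the gene of a Tec-family kinase, was at 1.75 with prednisolone and 3.41 with vehicle, a difference of −1.66 ± 0.20. Trat1, which encodes an adaptor bound to the receptor complex, was at −2.77 with prednisolone and −1.37 with vehicle, a difference of −1.40 ± 0.16. Rhoh, the gene of a GTPase that brings ZAP70 to the receptor, was at 4.62 with prednisolone and 5.92 with vehicle, a difference of −1.31 ± 0.20. These 3 were 2.47-fold to 3.17-fold lower and stayed 2-fold lower after spike-in scaling. Tespa1, known from thymocyte selection, differed by −1.22 ± 0.20, Sos2, the gene of a Ras exchange factor, by −1.08 ± 0.20 and Fyb, the gene of an adaptor that binds the SKAP1 protein, by −1.08 ± 0.14.

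The members Bcl10 and Malt1 were lower by more than their error, by 1.46-fold and 1.87-fold. After spike-in scaling both were still lower by more than their error, Bcl10 at −0.31 and Malt1 at −0.67. Chuk, which encodes the kinase IKKα further down the NF-κB branch, was at 0.11 with prednisolone and −0.62 with vehicle, a difference of 0.72 ± 0.16. Among the brakes outside the members, Spry1, a feedback inhibitor of the Ras relay, was at 2.04 with prednisolone and 0.15 with vehicle, a difference of 1.89 ± 0.20, or 3.70-fold higher. In the Ras relay itself the median of 13 genes was 0.016, and Hras was at 2.77 with prednisolone and 1.79 with vehicle, a difference of 0.98 ± 0.20. At the step to Ras, the values were thus lower for the exchange factor genes Rasgrp1 and Sos2 and higher for the inhibitor gene Spry1 and for Hras, each from 1 probe. The genes of calcium entry and calcineurin had a median of −0.12 over 13 genes, with none 2-fold apart.

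**Figure D4:**
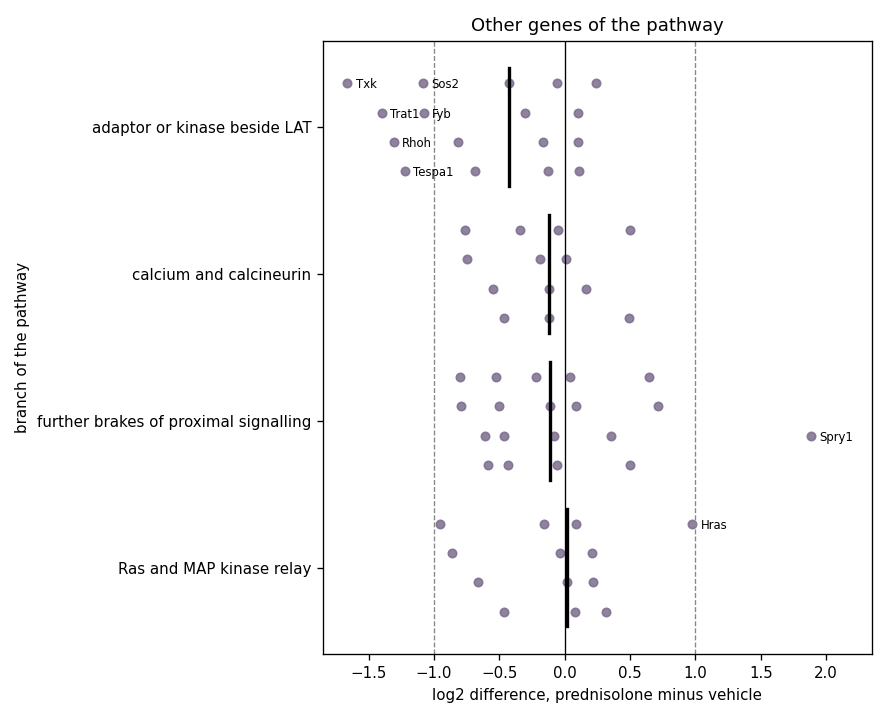
Log2 difference, prednisolone minus vehicle (horizontal axis), of other genes of the pathway in 4 branches (the NF-κB branch is not drawn), 1 point per gene; points are spread vertically for legibility, black bars are branch medians and dashed lines mark 2-fold. Points beyond 2-fold are named, with Hras, and the 6 lower ones lie in the branch of kinases and adaptors beside LAT, with Txk at −1.66.

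Markers of other cells bear on what the cultures held. The CD8 and CD3 genes that define the labelled cell type were well above background on both arrays. Of 35 markers of other cell types, 34 had a probe, 18 were well above background by at least 1 probe with prednisolone and 16 with vehicle. Dim on both arrays were 15, among them the defining gene Ms4a1 of B cells, Ncr1 of NK cells, Lyz2 and Adgre1 of macrophages and Itgax of dendritic cells. Other markers of the same lists were seen on both arrays, such as the B cell gene Cd79b at 2.07 with prednisolone and 1.41 with vehicle. The myeloid genes Csf1r and Itgam were also seen, Csf1r at −0.82 with prednisolone and −0.81 with vehicle, and Itgam at −0.66 with prednisolone and −0.68 with vehicle. Klra8, an NK cell receptor gene, was well above background by 3 of 3 probes with prednisolone and 0 of 3 with vehicle. Cd4 was at 0.76 with prednisolone and 0.68 with vehicle, by 1 of its 2 probes. The Cd4 difference, 0.084 ± 0.20, lay within its error, and the other CD4 T cell markers seen on both arrays were lower with prednisolone. Zbtb7b was at −0.13 with prednisolone and 0.81 with vehicle, and Foxp3 at −2.84 with prednisolone and −2.09 with vehicle. Cd68, a lysosomal marker of macrophages, was at −1.92 with prednisolone and 0.52 with vehicle, and Hba-a1, a globin gene, was at 0.89 with prednisolone and −3.08 with vehicle. Summed over the markers of a list, in units of the 75th percentile, the B cell signal was 4.34 with prednisolone and 2.86 with vehicle, and the NK cell signal 0.59 with prednisolone and 0.19 with vehicle. The myeloid sum was 10.9 with prednisolone and 12.7 with vehicle, and the erythroid sum 5.26 with prednisolone and 0.67 with vehicle. The CD4 T cell sum was 2.79 with prednisolone and 3.62 with vehicle, the γδ T cell sum 2.84 with prednisolone and 1.51 with vehicle, and the neutrophil sum 2.08 with prednisolone and 3.08 with vehicle. For dendritic cells it was 97.9 with prednisolone and 93.7 with vehicle, where Siglech was the only marker seen on either array, by 1 of its 2 probes. Of the neutrophil markers, Ly6g alone was seen on both arrays, with a difference of −0.56 ± 0.20. S100a8 and S100a9 were dim on both. Of the γδ T cell markers, Cd163l1 differed by 1.41 ± 0.20. Sox13, at −0.16 ± 0.21, lay within its error, and Blk was dim on both arrays. A sum can thus rest mostly on 1 marker and need not follow the number of cells of that type. The sums come from different probes and can be set between the arrays, not between cell types. Their part in the differences of the members was not tested.

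**Figure D5:**
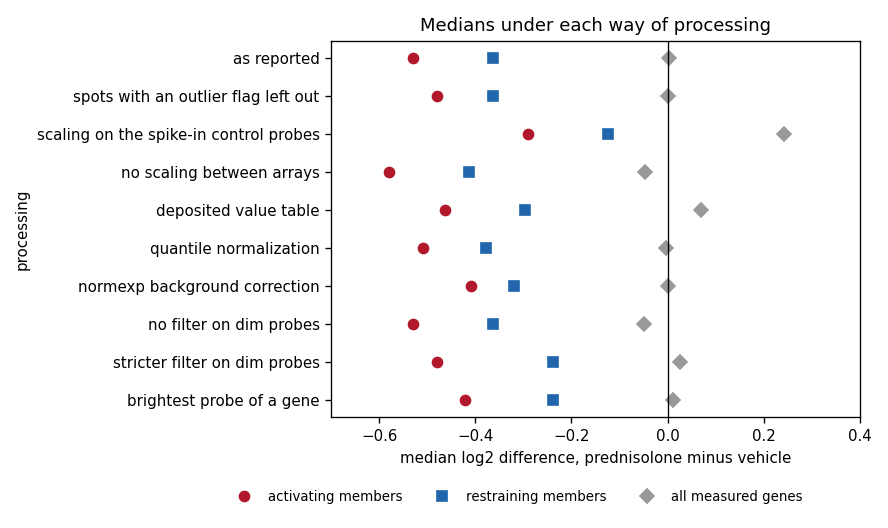
Median log2 difference, prednisolone minus vehicle (horizontal axis), of activating members (circles), restraining members (squares) and all measured genes (diamonds) as reported and under 9 other ways of processing (rows). The activating median lies between −0.58 and −0.29 and left of the restraining median in every row, where 3 of the rows add a constant to every gene and cannot alter that order, and spike-in scaling moves all 3 medians to the right by 0.24.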

How the data were processed

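Total RNA (100 ng) was labelled with Cy3 for 1-colour Agilent arrays, 1 array per condition, per the labels. The deposited scanner files hold linear intensity values that Agilent Feature Extraction 12.0.3.1 had background-subtracted and detrended within each array, per the file headers, without scaling between arrays. A deposited table of intensity values equals that signal times 1 constant per array, 0.858 for prednisolone and 0.792 for vehicle, and the basis of these constants is unknown. Its values are linear and were not centred; the prednisolone column has a median of 16.4 and the vehicle column 16.2. The number of arrays limits the precision.

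Main values were log2 processed signals scaled to each array's own 75th percentile (control spots excluded), with spots carrying outlier flags kept. Transcript accessions without version were matched to RefSeq symbols (GRCm38.p6), which named 33767 of 56605 probes. Probes carry no coordinates here because the headers refer to another build, mm9. Probes well above background on both arrays were averaged per gene. A bound sets the brighter array's value against the lowest signal well above background on the other. Genes at least 2-fold apart were counted without a test.

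The members and lists were chosen with earlier results of these data known. All members may be named. Of the 71 other pathway genes, those 2-fold apart and the 3 highest and 3 lowest are named, except 1 that is not reported here. Normexp (limma 3.58.1, offset 50) was run on the median signal, as no mean signal column was given. The procedure was tested on simulated data. Python 3.11.15 was used.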

Additional observations from a re-analysis of the deposited data

How the results depend on the processing

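The direction of the activating and restraining medians held under the 9 alternatives run (flagged spots left out, 5 other scalings or background corrections, no or a stricter filter on dim probes, and the brightest probe), and the number of members at least 2-fold higher was 0 in each. Scaling on the spike-in control probes moved all 35 member values by more than their software error. It gave a median of −0.29 for activating members, −0.12 for restraining members and 0.11 for other pathway genes. At least 2-fold lower were then 0 activating members and 3 other pathway genes, where 4.12% of all measured genes were. At least 2-fold higher were 2 other pathway genes, where 9.72% of all measured genes were. Leaving out spots with a flag left 32 members and gave 2 activating members at least 2-fold lower, Malt1 at −1.12 with Rasgrp1. The number of other pathway genes at least 2-fold higher was 2 without flagged spots, in the deposited value table, under the stricter filter and with the brightest probe, against 1 as reported, the added gene being Hras or Dgke. Normexp moved 2 members, Cd247 to −0.42 and Themis to −0.38, and gave 422 genes at least 2-fold higher and 456 lower, against 754 and 868 as reported. With no filter on dim probes those numbers were 1550 and 1831, among 23462 genes, and under the stricter filter 488 each, among 10022. With the brightest probe 4 members moved by more than their error, among them Grap2 to 0.38 and Ubash3a to −0.11. No paired analysis was possible because each condition has 1 array. Dim probes limit what can be said of Pag1 and of the weakest probes of Cd247 and Themis.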
